A study of Mus musculus with 9 samples.

Results

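Polycomb repressive complexes are the protein assemblies that place and read the repressive histone marks of silent developmental genes. The 10 genes described here encode subunits of these complexes and were chosen by symbol, with earlier results of these data known: Ezh1, Ezh2, Suz12, Eed, Jarid2, Mtf2, Ring1, Rnf2, Cbx7 and Kdm2b. All 10 were listed among the 15074 genes of the expression table. RNA-seq was performed on 3 lines of mouse embryonic stem cells (ESCs) at days 0, 2 and 4 of differentiation. WT cells were J1 ESCs, an established mouse line. The 1KO cells were Dnmt1-/- ESCs derived from J1, which lack DNMT1, the enzyme that copies CpG methylation after DNA replication. The 1KO+1CI cells were 1KO cells with a transgene for catalytically inactive DNMT1 under the ubiquitous CAG promoter, together with a zeocin resistance gene. The transgenic line was grown from isolated resistant colonies, so that its differences from 1KO cells cannot be told apart from those of the clone. The 1KO cells were likewise a single derived line, so that loss of DNMT1 cannot be told apart from other changes in that line. Before differentiation, all 3 lines were grown on mitomycin C-treated mouse embryonic fibroblasts in serum and LIF. Feeders were then depleted by adherence to gelatin, embryoid bodies were formed for 1 day without LIF, and the bodies were cultured on an adherent surface to day 4.

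There are 2 main Polycomb complexes. PRC2 methylates histone H3 through its catalytic subunit EZH2 or EZH1, which works only when joined to the core subunits SUZ12 and EED. JARID2 and MTF2 are accessory subunits of alternative forms of PRC2 and help to bring it to CpG-rich DNA. PRC1 adds ubiquitin to histone H2A through RING1 or RNF2, and it reaches its targets either through chromobox proteins such as CBX7, which bind the methyl mark of PRC2, or through KDM2B, which binds unmethylated CpG. In ESCs these complexes hold many promoters of lineage regulators in a silent but inducible state, and DNA methylation and Polycomb marks mostly occupy different CpG-rich regions.

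Each of the 9 conditions had 1 library, so that no comparison of a pair of conditions has a replicate error, and none says whether a difference exceeds the spread between cultures. Levels are given as FPKM, the read count scaled to transcript length and library size by the authors. The decimals of some genes, such as Ezh2 at 71.5625 FPKM on WT day 0, look like means over several transcripts. No source used here states this, and read counts of such genes are approximate. Differences are in log2(FPKM + 1) unless an FPKM ratio is stated, and this scale understates changes of low genes. The libraries held 20100000 to 28000000 counted reads as judged from the smallest steps of the values. Dnmt1, the targeted gene, was at 74.0, 80.4 and 48.5 FPKM in WT cells on days 0, 2 and 4, at 13.7, 17.4 and 12.3 FPKM in 1KO cells, and at 315, 129 and 158 FPKM in 1KO+1CI cells. The ESC markers were all listed in every library and summed to between 904 and 1891 FPKM, of which Pou5f1 alone gave 632 to 1008 FPKM. Of 10 genes of feeder fibroblasts 9 were listed, and their summed level on day 0 was 99.6 FPKM in WT cells, 195 FPKM in 1KO cells and 223 FPKM in 1KO+1CI cells, against 13.5 to 31.8 FPKM on days 2 and 4. On day 4, the 6 listed of 8 primitive streak genes summed to 20.3 FPKM in WT cells, 154 FPKM in 1KO cells and 138 FPKM in 1KO+1CI cells. Of these sums Fgf8 alone gave 8.51, 84.5 and 63.0 FPKM. The 8 primitive endoderm genes summed to 59.4, 79.7 and 130 FPKM on that day, of which Lamb1 gave 33.5, 41.9 and 62.7 FPKM. The part of these other cells in the values of the Polycomb genes was not tested. In such bulk samples, fewer cells of a type and less RNA per cell cannot be told apart.

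The start sites of the Polycomb genes lay in CpG-rich sequence. RefSeq promoter windows (GRCm38.p6, 250 bases before to 50 bases after the start) were matched by symbol for all 10 genes, 15 windows in all. They held a median of 30 CpG dinucleotides, against 20 for the windows of genes in the expression table and 7 over all 32851 windows. The count ranged from 2 in the downstream window of Mtf2 to 49 in a window of Kdm2b. Windows are printed for the 4 genes whose fall from day 2 to day 4 was called in every fit described below, and for Kdm2b, whose rise to day 2 was. They are written 5′ to 3′ on the strand of the gene, in lower case with each CpG, the substrate of DNMT1, in capitals. The windows are chr13:44730524-44730823 on the plus strand for Jarid2, chr5:108065424-108065723 on the plus strand for Mtf2, chr11:79992856-79993155 on the plus strand for Suz12, chr15:79932597-79932896 on the minus strand for Cbx7 and chr5:122989050-122989349 on the minus strand for Kdm2b.
Jarid2: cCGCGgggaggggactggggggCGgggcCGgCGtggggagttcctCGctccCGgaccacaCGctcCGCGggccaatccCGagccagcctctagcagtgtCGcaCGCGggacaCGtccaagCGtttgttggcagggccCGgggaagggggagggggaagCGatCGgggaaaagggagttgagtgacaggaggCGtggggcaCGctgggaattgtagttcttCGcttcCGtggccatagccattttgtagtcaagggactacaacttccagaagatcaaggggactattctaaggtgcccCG
Mtf2: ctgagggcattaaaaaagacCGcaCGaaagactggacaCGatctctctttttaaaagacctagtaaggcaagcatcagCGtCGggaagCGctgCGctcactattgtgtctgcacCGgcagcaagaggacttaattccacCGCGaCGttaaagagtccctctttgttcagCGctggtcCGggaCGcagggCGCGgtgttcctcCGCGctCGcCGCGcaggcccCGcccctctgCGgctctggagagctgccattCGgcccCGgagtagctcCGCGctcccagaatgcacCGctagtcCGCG
Suz12: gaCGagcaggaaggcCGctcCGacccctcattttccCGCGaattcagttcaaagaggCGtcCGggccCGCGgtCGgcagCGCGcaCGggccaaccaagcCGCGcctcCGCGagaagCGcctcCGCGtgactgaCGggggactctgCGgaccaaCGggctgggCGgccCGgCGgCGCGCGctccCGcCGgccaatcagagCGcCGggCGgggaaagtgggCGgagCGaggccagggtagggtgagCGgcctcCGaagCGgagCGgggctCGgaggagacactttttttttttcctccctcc
Cbx7: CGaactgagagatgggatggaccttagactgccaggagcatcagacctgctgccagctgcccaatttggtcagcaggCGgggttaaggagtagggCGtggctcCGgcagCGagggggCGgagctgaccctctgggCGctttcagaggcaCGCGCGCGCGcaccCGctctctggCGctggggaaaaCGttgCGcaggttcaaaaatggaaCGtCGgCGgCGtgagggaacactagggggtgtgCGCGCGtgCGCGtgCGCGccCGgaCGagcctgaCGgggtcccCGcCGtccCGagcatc
Kdm2b: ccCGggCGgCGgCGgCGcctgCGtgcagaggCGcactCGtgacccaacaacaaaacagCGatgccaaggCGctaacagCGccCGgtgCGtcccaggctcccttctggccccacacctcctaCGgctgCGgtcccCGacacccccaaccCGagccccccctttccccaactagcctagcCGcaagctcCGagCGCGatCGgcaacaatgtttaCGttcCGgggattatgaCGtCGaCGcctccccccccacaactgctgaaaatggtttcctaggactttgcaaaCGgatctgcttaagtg
The printed Suz12 window held 41 CpG, that of Cbx7 33, that of Mtf2 30, that of Kdm2b 28 and that of Jarid2 24, and 80.0% of all windows held fewer than that of Jarid2. Windows of Kdm2b that are not printed held 49, 47 and 18 CpG, that of Jarid2 23 and that of Mtf2 2. The letters GCGGGAA, searched on both strands as a motif of cell cycle promoters, were found in the Suz12 window alone, where they lie on the strand opposite to the printed one. This was 6.67% of the 15 windows, against 4.60% of all windows and 7.97% of those of genes in the table. Methylation was not among the values used here.

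The 10 genes lie on 8 chromosomes, with Ezh1 and Suz12 on chromosome 11 and Mtf2 and Kdm2b on chromosome 5. In GRCm38, Jarid2 spans chr13:44729474-44921643 on the plus strand, Ezh1 chr11:101191115-101226463 on the minus strand and Eed chr7:89954654-89980983 on the minus strand. Levels per length differed widely between the subunits. Mean FPKM over the 9 libraries was highest for Jarid2 (75.0), Suz12 (59.9) and Ezh2 (58.3), followed by Mtf2 (54.0), Eed (52.7) and Cbx7 (50.3), and was 36.0 for Rnf2 and 35.7 for Kdm2b. Ezh1 (6.85) and Ring1 (5.06) were the lowest in every library. Counting error was small beside these levels. The least deeply covered members, Ring1 and Ezh1, held about 193 to 261 and 313 to 938 reads per library, and all others at least 1540 reads, if 1 step of the values is 1 read. These counts were taken with the shortest mapped transcript, which is a rough guide for genes with several, such as Jarid2 and Mtf2. Over the 9 libraries, the highest value of Jarid2 was 3.66 times its lowest, that of Ezh1 2.92 times and that of Mtf2 2.85 times, whereas that of Ring1 was 1.30 times its lowest. On the log2 scale the ranges of the 10 genes had a median of 1.04, beside 0.82 over all genes with a mean of at least 1 FPKM. The plot of levels by day shows the course of each gene.

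**Figure D1:**
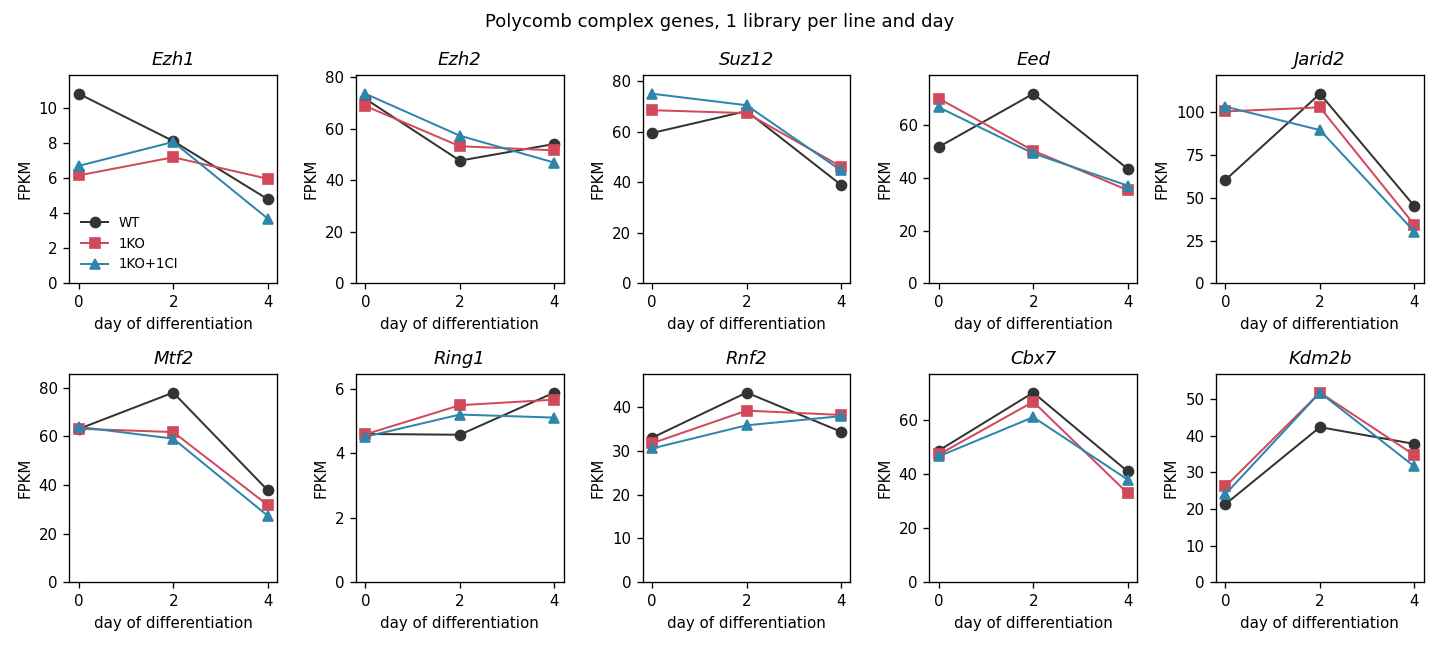
FPKM (vertical axis, from 0, scaled per gene) of the 10 Polycomb genes by day of differentiation (horizontal axis) in WT (circles), 1KO (squares) and 1KO+1CI cells (triangles), each point being 1 library. Jarid2, Mtf2, Suz12, Eed and Cbx7 are lowest on day 4 in all 3 lines, and on day 0 Jarid2 stands at 60.3 FPKM in WT cells against 100 and 103 FPKM in the other lines.

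The first question was how the Polycomb genes changed over differentiation. A limma fit with terms for line and day, over all 9 libraries, gave the mean difference between days over the 3 lines with its standard error (SE). Its error is the departure of the lines from parallel courses and not the spread between cultures, and it has 4 residual degrees of freedom. The 1KO+1CI cells were made from 1KO cells, so the 3 lines are not independent, and the SE and p-values may be too small. P-values were adjusted by the Benjamini-Hochberg method over 12153 genes, and a gene was called at an adjusted p under 0.05. From day 2 to day 4, 5 of the 10 genes were called, all of them lower (26.6% of all genes tested were called). From day 0 to day 4, 7 were called, of which 6 fell and Kdm2b rose (25.7% of all genes). Between days 0 and 2, 3 were called, with Kdm2b and Cbx7 higher and Ezh2 lower (17.8% of all genes), of which Kdm2b alone was left without WT day 2, 1KO day 2 or 1KO+1CI day 0. Without 1KO+1CI day 0 or day 4, the count to day 4 was 3 or 4. The median difference of the 10 genes was -0.57 from day 2 to day 4, beside -0.00 over all genes tested, and 0.09 from day 0 to day 2, beside 0.02.

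Of the catalytic pair of PRC2, Ezh2 was the more abundant and fell early. Ezh2 was at 71.6, 47.6 and 54.1 FPKM in WT cells on days 0, 2 and 4, at 68.8, 53.2 and 51.6 FPKM in 1KO cells, and at 73.6, 57.3 and 46.9 FPKM in 1KO+1CI cells. The 3 day 0 libraries lay above the 6 later ones, which overlapped each other. In the fit Ezh2 fell by 0.43 (SE 0.10, adjusted p 0.0277, lower in 3 of 3 lines) to day 2 and by 0.48 (SE 0.10, adjusted p 0.0132, lower in 3 of 3 lines) to day 4. The first call was lost without any of the 6 libraries of days 0 and 2 in turn (adjusted p up to 0.125), and the second without 1KO day 4, 1KO+1CI day 0 or 1KO+1CI day 4 (up to 0.0703). Ezh1, its close relative of weaker enzymatic activity, was at 10.8, 8.13 and 4.82 FPKM in WT cells, 6.17, 7.21 and 5.98 FPKM in 1KO cells and 6.72, 8.08 and 3.71 FPKM in 1KO+1CI cells. All its day 4 values lay below those of days 0 and 2, those of 1KO cells by little, and its day 4 difference from day 2 of -0.61 (SE 0.20, adjusted p 0.0513, lower in 3 of 3 lines) was not called. With days 2 and 4 alone, a fit chosen after the data were seen, that difference had an adjusted p of 0.0434.

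The core subunits that hold the catalytic subunit in PRC2 were lowest on day 4. Suz12, which the complex needs to assemble, was at 59.6, 68.2 and 39.0 FPKM in WT cells, at 68.6, 67.4 and 46.3 FPKM in 1KO cells and at 75.1, 70.6 and 44.7 FPKM in 1KO+1CI cells. Days 0 and 2 overlapped, and the day 4 libraries lay below all others. The fit gave a difference of 0.03 to day 2 and a fall by 0.66 from day 2 to day 4 (SE 0.09, adjusted p 0.00336, lower in 3 of 3 lines). Eed, which binds the methyl mark and stimulates the enzyme, was at 51.6, 71.7 and 43.4 FPKM in WT cells, at 69.9, 50.2 and 35.3 FPKM in 1KO cells and at 66.6, 49.2 and 37.0 FPKM in 1KO+1CI cells. The lines moved in opposite directions to day 2, WT by 0.47 and the others by -0.47 and -0.43, and all 3 were lower on day 4 than on either earlier day. Eed fell by 0.68 from day 0 to day 4 (SE 0.18, adjusted p 0.0249, lower in 3 of 3 lines), while the difference of -0.54 from day 2 to day 4 was not called (SE 0.18, adjusted p 0.0546). The call to day 4 was lost without day 0 or day 4 of either 1KO or 1KO+1CI cells (adjusted p up to 0.125). The latter difference had an adjusted p of 0.0148 with days 2 and 4 alone.

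The accessory subunits showed the deepest falls. Jarid2, which contacts both nucleosome and PRC2, was at 60.3, 110 and 45.0 FPKM in WT cells, at 100, 102 and 34.2 FPKM in 1KO cells and at 103, 89.3 and 30.2 FPKM in 1KO+1CI cells. All day 4 libraries lay below the 6 earlier ones, and WT day 0 lay below the other 5 of these. From day 2 to day 4 Jarid2 fell by 1.46 (SE 0.23, adjusted p 0.00461, lower in 3 of 3 lines), and from day 0 by 1.22 (SE 0.23, adjusted p 0.00712, lower in 3 of 3 lines). Mtf2, a Polycomb-like protein that binds CpG-rich DNA, was at 63.0, 78.0 and 37.8 FPKM in WT cells, at 63.1, 61.7 and 31.8 FPKM in 1KO cells and at 63.8, 59.0 and 27.3 FPKM in 1KO+1CI cells. Its day 0 values were nearly equal in the 3 lines, and the day 4 libraries lay below all others. Mtf2 fell by 1.01 from day 2 to day 4 (SE 0.11, adjusted p 0.00144, lower in 3 of 3 lines). The falls of Jarid2, Mtf2 and Suz12 to day 4, from either earlier day, were called in all 14 fits that were compared, with each library left out in turn among them. Between days 2 and 4 the summed feeder genes stayed at 13.5 to 31.8 FPKM, whereas the median of the 8 ESC markers went from 129 to 24.1 FPKM in WT cells, 76.2 to 11.5 FPKM in 1KO cells and 55.6 to 12.9 FPKM in 1KO+1CI cells. Of these 8 markers 6 were called lower (26.6% of all genes tested were called), and the median difference of the 8 was -1.74. Pou5f1 (0.01) and Nanog (0.93) were not called. Nanog went from 58.8 to 171 FPKM in 1KO cells and from 40.9 to 157 FPKM in 1KO+1CI cells, but from 89.5 to 56.8 FPKM in WT cells. The part of the markers in the falls of the Polycomb genes was not tested.

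Of the 4 PRC1 genes among the 10, the enzymes Rnf2 and Ring1 were not called in a day contrast, and Cbx7 and Kdm2b were called in all 3. Rnf2, the main ubiquitin ligase of PRC1 in ESCs, was at 33.0, 43.3 and 34.4 FPKM in WT cells, at 31.7, 39.2 and 38.2 FPKM in 1KO cells and at 30.6, 35.8 and 37.9 FPKM in 1KO+1CI cells. Ring1, the alternative ligase, was at 4.60, 4.57 and 5.88 FPKM in WT cells, at 4.58, 5.49 and 5.66 FPKM in 1KO cells and at 4.51, 5.20 and 5.10 FPKM in 1KO+1CI cells. For Rnf2 the day 0 libraries were the 3 lowest and days 2 and 4 overlapped. Their differences from day 0 to day 4 were 0.21 for Rnf2 (SE 0.10, adjusted p 0.168) and 0.23 for Ring1 (SE 0.12, adjusted p 0.196), and both were higher in 3 of 3 lines. The widest counting interval of Ring1 reached 15.1% above its value.

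Cbx7 and Kdm2b peaked on day 2. Cbx7, the chromobox subunit that reads the PRC2 mark in ESCs, was at 48.7, 70.2 and 41.0 FPKM in WT cells, at 47.3, 66.8 and 32.9 FPKM in 1KO cells and at 46.6, 61.1 and 38.0 FPKM in 1KO+1CI cells. The 3 days did not overlap, with day 2 highest and day 4 lowest in every line. It rose by 0.46 to day 2 (SE 0.10, adjusted p 0.0164, higher in 3 of 3 lines) and fell by 0.81 to day 4 (SE 0.10, adjusted p 0.00188, lower in 3 of 3 lines). The rise was lost without WT day 2, 1KO day 2 or 1KO+1CI day 0 (adjusted p up to 0.119), whereas the fall was called in all 14 fits. The lower level on day 4 than on day 0, by 0.35 (SE 0.10, adjusted p 0.0318), was called in 8 of 14 fits and lost, among others, without 1KO day 0, 2 or 4 or 1KO+1CI day 0 or 4 (up to 0.146). Kdm2b, the CpG-binding subunit that brings a variant PRC1 to unmethylated islands, was at 21.3, 42.3 and 37.8 FPKM in WT cells, at 26.2, 51.8 and 34.7 FPKM in 1KO cells and at 24.1, 51.8 and 31.6 FPKM in 1KO+1CI cells. Its days did not overlap either, and day 0 was the lowest. Kdm2b rose by 1.00 to day 2 (SE 0.12, adjusted p 0.00242, higher in 3 of 3 lines), a call made in all 14 fits. It then fell by 0.47 to day 4 (SE 0.12, adjusted p 0.0236, lower in 3 of 3 lines) and was still 0.52 above day 0 (SE 0.12, adjusted p 0.0156, higher in 3 of 3 lines). The fall was lost without day 2 or day 4 of either 1KO or 1KO+1CI cells (adjusted p up to 0.112), and the higher level on day 4 without 1KO+1CI day 0 (0.0647). Exons of Cbx7, Kdm2b, Mtf2 and Rnf2 overlap genes on the opposite strand that are also in the table (Apobec3, Rnf34 with A930024E05Rik, Tmed5 and Trmt1l), and without strand, reads in such overlaps cannot be told apart.

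**Figure D2:**
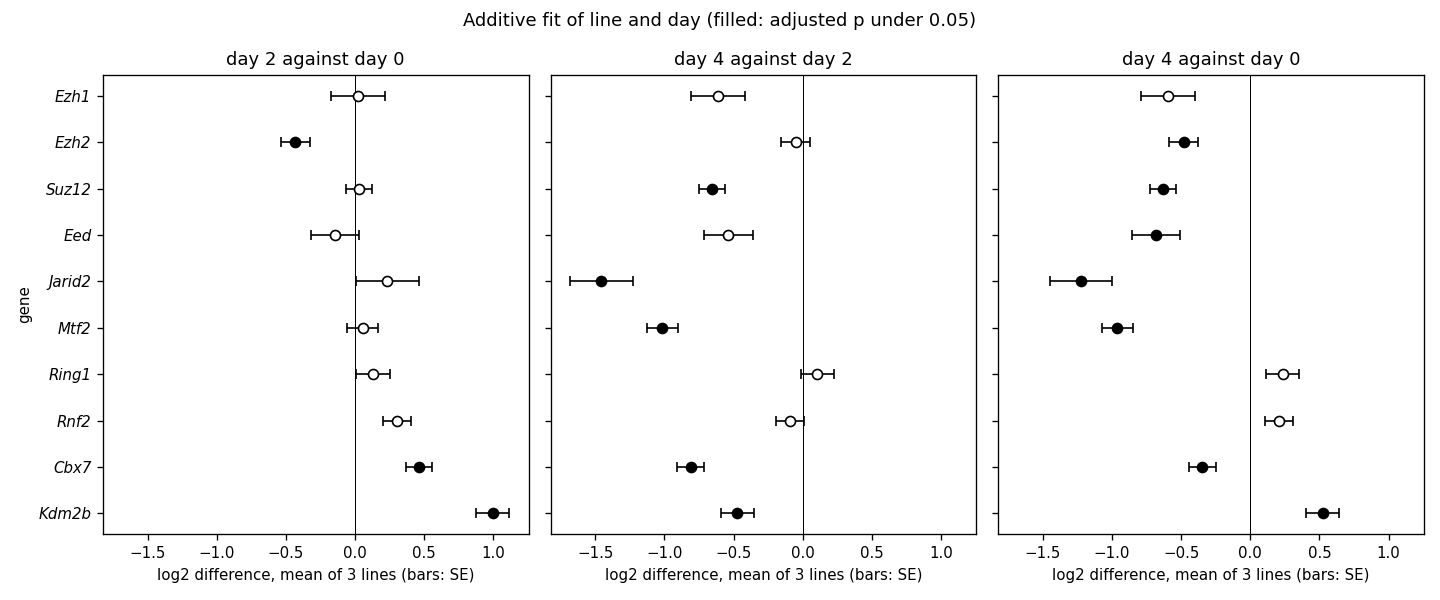
Differences in log2(FPKM + 1) between days for the 10 Polycomb genes, as the mean over the 3 lines in the fit of line and day, with bars of 1 SE and filled symbols for an adjusted p under 0.05. The largest are the falls of Jarid2 to day 4 from day 2 (-1.46) and from day 0 (-1.22). Next are the fall of Mtf2 from day 2 to day 4 (-1.01) and the rise of Kdm2b to day 2 (1.00).

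Within single lines the same days can be compared without an error. From day 2 to day 4, 6 of the 10 genes differed by at least 0.5 in WT cells (28.4% of all genes), 5 in 1KO cells (26.8%) and 6 in 1KO+1CI cells (23.5%), all lower on day 4. Jarid2 differed by -1.28, -1.56 and -1.53, Mtf2 by -1.02, -0.94 and -1.08, Suz12 by -0.79, -0.53 and -0.65, and Cbx7 by -0.76, -0.998 and -0.67 in WT, 1KO and 1KO+1CI cells. Eed in 1KO cells fell just short of the limit at -0.497. From day 0 to day 2, 4 genes differed by as much in WT cells (26.0% of all genes), namely Kdm2b by 0.96, Jarid2 by 0.86, Cbx7 by 0.52 and Ezh2 by -0.58. In 1KO cells (20.6%) and in 1KO+1CI cells (22.1%) 1 gene did so, Kdm2b by 0.96 and 1.07. Between days 0 and 4 the numbers were 4 in WT cells (25.7%), 5 in 1KO cells (28.6%) and 6 in 1KO+1CI cells (30.5%). Jarid2 was among them in 1KO cells at -1.52 and in 1KO+1CI cells at -1.74 but at -0.41 in WT cells, where its day 0 level was the lower. These comparisons share libraries with each other and with the fit. Summed over the 10 genes, FPKM went from 425 to 544 and 343 in WT cells, from 486 to 505 and 317 in 1KO cells, and from 494 to 487 and 302 in 1KO+1CI cells.

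The second question was whether the Polycomb genes differed without DNMT1. On day 0, 2 of the 10 genes differed by at least 0.5 between 1KO and WT cells (21.1% of all genes) and the same 2 between 1KO+1CI and WT cells (22.2%), comparisons that share the WT library. Jarid2 was higher in 1KO cells by 0.72 and in 1KO+1CI cells by 0.76, with FPKM ratios of 1.66 and 1.71. Ezh1 was lower by 0.72 and 0.62, with ratios of 0.570 and 0.620. The 95% intervals of counting error for the Jarid2 ratio in 1KO cells, 1.58 to 1.74 with both mates of a pair counted, and for that of Ezh1, 0.495 to 0.655, did not hold 1, but they cover counting error only. That of Jarid2 rests on approximate read counts. Eed was 0.43 and 0.36 higher and Suz12 0.20 and 0.33 higher, while Mtf2, Ring1, Rnf2, Cbx7 and Ezh2 lay within 0.11 of WT cells in both lines. In 1KO and 1KO+1CI cells on day 0 the levels of Jarid2 (100 and 103 FPKM) and Eed (69.9 and 66.6 FPKM) were nearer to WT day 2 (110 and 71.7 FPKM) than to WT day 0 (60.3 and 51.6 FPKM). This did not hold for Cbx7, at 47.3 and 46.6 FPKM against 48.7 FPKM on WT day 0 and 70.2 FPKM on WT day 2, nor for Kdm2b. Summed feeder genes on day 0 were also higher in these lines, at 195 and 223 FPKM against 99.6 FPKM, and their part in these differences was not tested.

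On day 2, 1 gene passed 0.5 in 1KO cells (14.3% of all genes) and in 1KO+1CI cells (17.1%), which was Eed, lower by 0.51 and 0.54. Mtf2 was at -0.33 and -0.40 on that day, and Kdm2b at 0.28 in both lines. On day 4 none of the 10 passed in 1KO cells (12.9%), where the largest difference was that of Jarid2 at -0.39, and 1 passed in 1KO+1CI cells (19.1%), Jarid2 at -0.56. Jarid2 stood above WT cells on day 0 and below them on day 4 in both lines, and Mtf2 was level on day 0 and lower on days 2 and 4.

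The third question was whether the inactive transgene changed any of these genes in cells without DNMT1. Between 1KO+1CI and 1KO cells none of the 10 genes passed 0.5 on day 0 (6.05% of all genes) or day 2 (3.99%), and 1 did on day 4 (7.8%), Ezh1 with 3.71 against 5.98 FPKM, a difference of -0.57. Over the 30 pairs of values the median gap between the lines was 0.10 and, after Ezh1, the largest gap was 0.21. Since few of all genes passed 0.5 between these lines, this closeness is not shown to be particular to the 10 genes. Among the smaller differences were Mtf2 on day 4 at -0.21, Cbx7 on day 4 at 0.20 and Jarid2 on day 2 at -0.20.

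**Figure D3:**
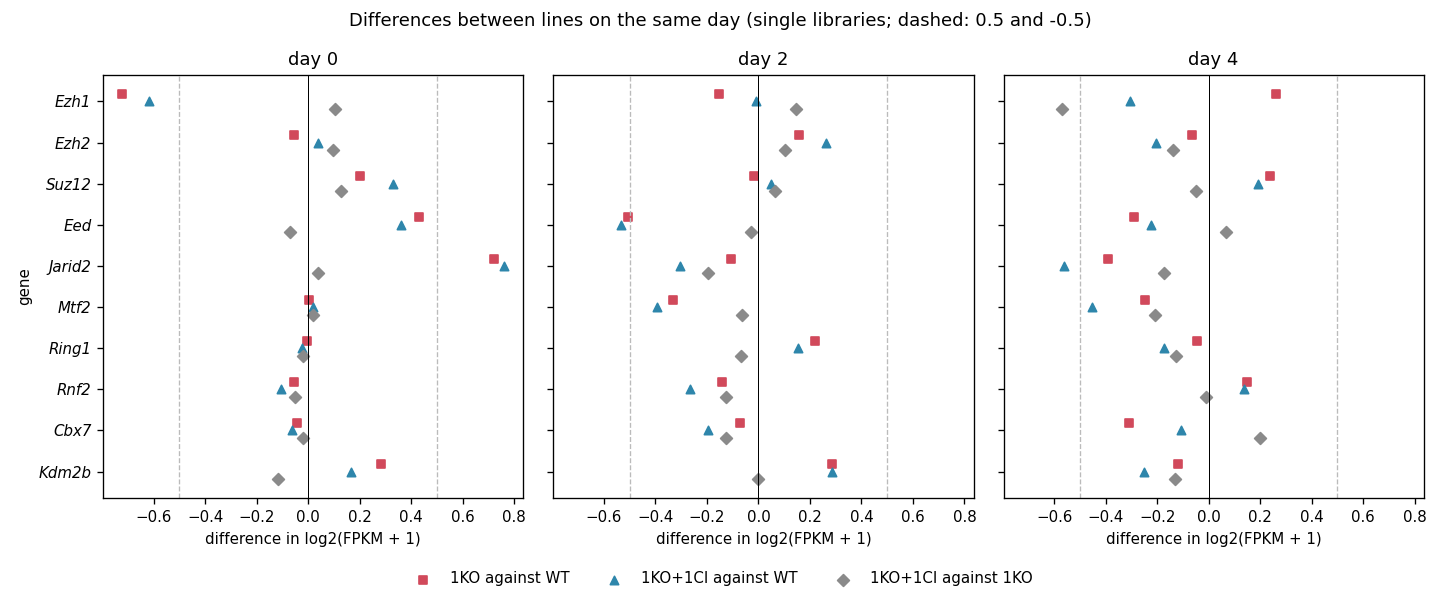
Differences in log2(FPKM + 1) (horizontal axis) between lines on days 0, 2 and 4 for the 10 Polycomb genes, each from 2 single libraries, with dashed lines at 0.5 and -0.5. On day 0 Jarid2 (0.72 and 0.76) and Ezh1 (-0.72 and -0.62) lie outside the lines against WT, and 1KO+1CI against 1KO lies outside only for Ezh1 on day 4 (-0.57).

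Averaged over days, the fit called none of the 10 genes in any comparison of lines. Over all genes it called 2.91% for 1KO against WT, 5.41% for 1KO+1CI against WT and 0.00823%, a single gene, for 1KO+1CI against 1KO. At an unadjusted p under 0.05 there were 0 of the 10 genes for 1KO against WT, 0 for 1KO+1CI against 1KO and 1 for 1KO+1CI against WT, namely Mtf2 at -0.28 (SE 0.11, p 0.0359 and adjusted p 0.193 by limma, lower on 2 of 3 days). Of the 12153 genes tested, 1899, 455 and 2626 passed the same limit in these comparisons, in that order. The mean of Jarid2 over days differed by 0.08 between 1KO and WT cells (SE 0.23, adjusted p 0.916), since its differences were positive on day 0 and negative afterwards. The SE of Jarid2 (0.23), Ezh1 (0.20) and Eed (0.18) were the largest of the 10, against 0.09 to 0.12 for the other 7, and these are the 3 genes whose lines ran least in parallel. Whether a course differed between lines could not be tested with 1 library per condition.

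Within each pair of enzymes the proportions were compared per length. Ezh2 exceeded Ezh1 by FPKM ratios of 6.61, 5.86 and 11.2 in WT cells on days 0, 2 and 4, of 11.1, 7.38 and 8.63 in 1KO cells and of 11.0, 7.09 and 12.6 in 1KO+1CI cells. On day 0 WT cells thus had the lowest ratio of the 3 lines, and on day 2 the lines lay between 5.86 and 7.38. Rnf2 exceeded Ring1 by ratios of 5.85 to 9.48 over the 9 libraries, with WT cells holding both ends, on days 4 and 2. The ratio stayed between 6.75 and 7.44 in 1KO and 1KO+1CI cells.

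Of 7 further PRC2 genes tested, 3 fell and 1 rose in the fit from day 2 to day 4, beside 26.6% of all genes called, with a median difference of -0.60. Phf19, a relative of Mtf2, was at 1.83, 8.79 and 0.751 FPKM in WT cells, at 7.39, 6.21 and 0.698 FPKM in 1KO cells and at 5.36, 5.61 and 0.889 FPKM in 1KO+1CI cells. It fell by 2.13 from day 2 to day 4 (SE 0.35, adjusted p 0.00543, lower in 3 of 3 lines), and as with Jarid2 its day 0 level was lower in WT cells than in the other lines. Aebp2, the usual partner of Jarid2, fell by 0.67 (SE 0.14, adjusted p 0.011) after a rise by 0.49 to day 2 (SE 0.14, adjusted p 0.0433), and Lcor, whose locus also encodes a PRC2 accessory protein, fell by 0.87 (SE 0.15, adjusted p 0.00639). Rbbp7, a histone chaperone that PRC2 shares with other complexes, rose by 0.79 (SE 0.18, adjusted p 0.017) and was the most abundant of the list, at 118 to 250 FPKM. Between days 0 and 4, 2 of the 7 were called, Phf19 and Lcor, both lower (25.7% of all genes), and from day 0 to day 2 Aebp2 alone (17.8%).

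Of 25 further PRC1 genes tested, 10 fell and 4 rose from day 2 to day 4, beside 26.6% of all genes called, with a median difference of -0.15. Bmi1, a ring finger partner of RNF2, fell by 1.12 (SE 0.18, adjusted p 0.00531), from 7.00 to 8.06 FPKM on day 2 to 2.37 to 3.81 FPKM on day 4. L3mbtl2, a subunit of a variant complex, fell by 1.06 (SE 0.17, adjusted p 0.00461) and Fbrs by 0.81 (SE 0.14, adjusted p 0.00661). Yaf2, which bridges ligase and chromatin in variant complexes, rose by 1.14 (SE 0.19, adjusted p 0.00599), Bcorl1 by 0.97 (SE 0.17, adjusted p 0.00611) and Phc2, a polyhomeotic subunit, by 0.68 (SE 0.16, adjusted p 0.0181). Rybp, the relative of Yaf2, rose by 0.38 to day 2 (SE 0.10, adjusted p 0.0316), as did Bmi1 by 0.88 and Cbx6 by 0.54, while Scmh1 and Fbrsl1 fell by 0.69 and 0.57. By day 4, against day 0, 10 of the 25 were called, 4 higher and 6 lower (25.7% of all genes), and by day 2 it was 5 of the 25 (17.8%). Phc1 was the most abundant of this list, at 98.9 to 160 FPKM. Of 9 genes that remove Polycomb marks or oppose them, 2 were called from day 2 to day 4, Asxl2 lower by 0.68 (SE 0.11, adjusted p 0.00529) and Bap1, the deubiquitinase, higher by 0.32 (SE 0.09, adjusted p 0.0335). These are 22.2% of the list, near the share of 26.6% over all genes. Asxl2 was the gene called to day 2, higher by 0.61, and Bap1 the gene called from day 0 to day 4, higher by 0.34.

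**Figure D4:**
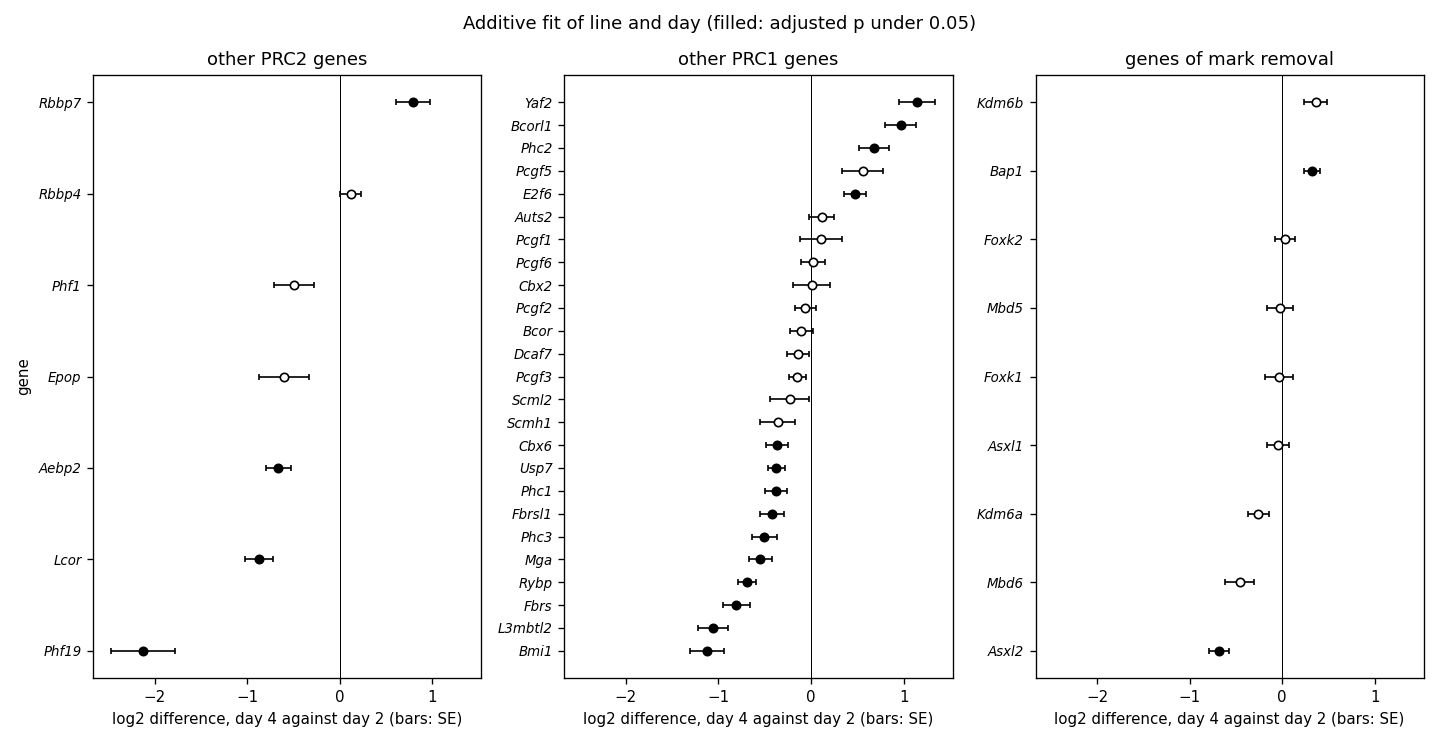
Differences in log2(FPKM + 1) from day 2 to day 4 (horizontal axis), as the mean over 3 lines with bars of 1 SE, for 7 other PRC2 genes, 25 other PRC1 genes and 9 genes that remove or oppose the marks, with filled symbols for an adjusted p under 0.05. Phf19 at -2.13 lies lowest and Yaf2 at 1.14 highest.

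Between lines, 2 of the 25 other PRC1 genes were called for 1KO+1CI against WT (8%, beside 5.41% of all genes). For 1KO against WT it was 1 of them (4%, beside 2.91%). Both shares are near those over all genes. Scml2, an X-linked PRC1 gene, was at 0.394, 0.705 and 0.289 FPKM in WT cells, at 3.00, 3.54 and 4.22 FPKM in 1KO cells and at 7.70, 6.28 and 4.22 FPKM in 1KO+1CI cells. Its mean of 3.37 FPKM passed the filter for testing through the lines where it is high. The WT libraries lay below the 6 others, and Scml2 rose by 1.65 in 1KO (SE 0.21, adjusted p 0.0136, higher on 3 of 3 days) and by 2.25 in 1KO+1CI (SE 0.21, adjusted p 0.00309, higher on 3 of 3 days). Bcor, a corepressor of the Kdm2b complex, was at 7.89 to 8.05 FPKM in WT cells and 10.7 to 15.4 FPKM in the others, and was called for 1KO+1CI against WT alone at 0.59 (SE 0.12, adjusted p 0.0309, higher on 3 of 3 days). In PRC2 no further gene was called in a comparison of lines.

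Genes that Polycomb complexes are known to bind in ESCs were mostly at low levels. Of 39 Hox genes 11 were listed, none reached a mean of 1 FPKM, and none was tested. Their summed level was 2.82 to 6.93 FPKM and was highest on day 0 in 1KO+1CI cells, where Hoxd13, the most abundant, was at 2.08 FPKM. On day 0 the summed Hox level was 4.49, 5.81 and 6.93 FPKM in WT, 1KO and 1KO+1CI cells, where the feeder genes summed to 99.6, 195 and 223 FPKM, and their part in the Hox levels was not tested. Of 41 other developmental regulators 23 were listed and 13 were tested. Of these 13, 3 rose and 5 fell from day 0 to day 4, 61.5% of those tested beside 25.7% of all genes. Eomes, a regulator of mesendoderm, rose by 3.19 (SE 0.40, adjusted p 0.00144) and T, the primitive streak gene, by 2.80 (SE 0.59, adjusted p 0.0119), reaching 8.51 and 2.07 FPKM in WT cells, 29.9 and 29.2 FPKM in 1KO cells and 38.5 and 27.2 FPKM in 1KO+1CI cells. Pax6, a regulator of eye and neural development, fell by 1.40 (SE 0.14, adjusted p 0.000614, lower in 3 of 3 lines). Pax6 was also lower in both lines without active DNMT1, by 0.76 in 1KO (SE 0.14, adjusted p 0.0334) and by 0.92 in 1KO+1CI (SE 0.14, adjusted p 0.0123), in 3 of 3 days each. These comparisons share the WT libraries, and 1KO+1CI cells were made from 1KO cells, so they are not independent. In 1KO+1CI cells, Gata6, a primitive endoderm regulator, was higher than in WT cells by 1.06 (SE 0.18, adjusted p 0.0176, higher on 3 of 3 days). For 1KO+1CI against WT, 3 of the 13 were called (23.1%, beside 5.41% of all genes). For 1KO against WT it was 1 of the 13 (7.69%, beside 2.91%). The 13 are those with a mean of at least 1 FPKM over the 9 libraries. A gene can pass this filter through the libraries where it is high. Gata6, with a mean of 1.13 FPKM, was at 0.606, 0.206 and 0.194 FPKM in WT cells on days 0, 2 and 4. T was at 0.282 to 1.275 FPKM on days 0 and 2 in all 3 lines. The shares of the 13 that were called may therefore depend on the filter.

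Since EZH2 and other Polycomb genes are known to be higher in dividing cells, 17 genes of DNA replication and mitosis were set beside them. Between days 0 and 2, 5 of these fell and 1 rose, 35.3% of the list beside 17.8% of all genes. From day 2 to day 4, 1 fell and 1 rose, 11.8% beside 26.6%, and from day 0 to day 4, 4 fell, 23.5% beside 25.7%. E2f1, a transcription factor of S phase entry, fell by 1.01 from day 0 to day 4 (SE 0.09, adjusted p 0.000456) and Mcm6, a subunit of the replicative helicase, by 0.73 (SE 0.09, adjusted p 0.0015). From day 2 to day 4, when Jarid2, Mtf2, Suz12 and Cbx7 fell, E2f1 fell by 0.68 (SE 0.09, adjusted p 0.00317) and Cdk1, the mitotic kinase, rose by 0.32 (SE 0.10, adjusted p 0.0406). Between lines, Mcm5 alone was called, lower in 1KO+1CI than in WT cells by 0.67 (SE 0.14, adjusted p 0.036). This was 5.88% of the list, beside 5.41% of all genes. The summed level of the 17 genes lay between 1430 and 2058 FPKM.

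Over the 9 libraries, which share lines and days and are not independent, the courses of some Polycomb genes ran together. Pearson's r of log2(FPKM + 1) was 0.94 between Jarid2 and Mtf2, 0.91 between Jarid2 and Suz12 and 0.89 between Jarid2 and Eed, and it was 0.16 between Jarid2 and Kdm2b and -0.89 between Ezh2 and Rnf2. For the 3 members of widest range, the most similar of 8388 genes with a mean of at least 5 FPKM were found. Those of Jarid2 were Cnot10 (r = 0.99), Enox1 (0.99) and Zfp975 (0.99), those of Mtf2 were Pecam1 (0.99), Chchd10 (0.98) and Cep55 (0.98), and those of Ezh1 were Uhrf1bp1 (0.96), Srpk2 (0.96) and Crlf3 (0.96).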

How the data were processed

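RNA-seq of 9 libraries was used, 1 for each line and day. Per the paper and the labels, trimming was done by the authors with Trim Galore, alignment to mm10 with HISAT2, file handling with SAMtools, and counting with normalization in HOMER. No source used here gives the versions or the strand setting. The deposited gene table holds FPKM values, used as given. The column of 1KO+1CI carries a number that the labels do not explain. A row named 0 and 20 rows with dates for names were left out of 15095, leaving 15074 genes. The deposited table of repeats was not used here. Groups were taken from the sample titles.

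Values were transformed to log2(FPKM + 1). Single libraries were compared as differences, with a limit of 0.5. A linear model of line and day, without interaction, was fitted with limma 3.58.1 (R 4.3.3, eBayes with trend) to 12153 genes with a mean of at least 1 FPKM, tested on simulated data beforehand. Depth was recovered from the steps of low values of 7035 genes with Python 3.11.15, and counting intervals are exact 95% Poisson or binomial intervals that cover counting error only. Gene positions and overlaps came from GENCODE M21 (GRCm38). CpG and motifs were counted in RefSeq promoter windows.

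The members and gene lists were chosen with earlier results of these data known. All 10 members are named. From other lists, at most 3 called genes per direction and contrast with the largest difference are named, with the highest and lowest expressed, and 3 genes most correlated with each of the 3 members of widest range. Some genes that this rule selects are not reported here. Alternatives were a pseudocount of 0.1, rescaling to a common sum (TPM), median-ratio scaling, a limit of 1, no filter, no trend, leaving out each library, and, chosen after the data were seen, days 2 and 4 alone.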

Additional observations from a re-analysis of the deposited data

Results flagged for a closer look

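Jarid2 stood apart by the direction of its difference between 1KO+1CI and WT cells. The difference in log2(FPKM + 1) was 0.76 on day 0, with 103 against 60.3 FPKM, and -0.56 on day 4, with 30.2 against 45.0 FPKM. The 2 differences have opposite signs, and whether they differ was not tested, since each rests on 1 library per condition. Between 1KO and WT cells, which share the WT libraries with the former, the values were 0.72 on day 0 and -0.39 on day 4. Other genes also changed sign between days, but with a difference under 0.5 in size. Among them was Eed, at 0.36 on day 0 and -0.54 on day 2 for 1KO+1CI against WT.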

How the results depend on the processing

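No called difference changed direction under an alternative. Of the counts of genes past the limit or called, 192 stayed near the main value under an alternative and 50 did not. For single members, 27 calls were lost and 14 gained. With a limit of 1 in place of 0.5, the number of the 10 genes past it was 0 in every comparison of lines and in each line from day 0 to day 2 except 1 for 1KO+1CI, 2, 1 and 2 from day 2 to day 4, and 1, 1 and 2 from day 0 to day 4 in WT, 1KO and 1KO+1CI cells. With TPM and the limit of 0.5, the number was 0 for 1KO+1CI against WT on day 4 and 2 for day 2 against day 0 in 1KO cells. The share of all genes past the limit was not computed under these alternatives, so these counts have no background beside them. When 1 library was left out, the fit called between 11 and 454 genes for 1KO against WT, 0 and 1 for 1KO+1CI against 1KO, 79 and 752 for 1KO+1CI against WT, 457 and 2714 for day 2 against day 0, 1159 and 4036 for day 4 against day 2, and 1325 and 3653 for day 4 against day 0. Of the 10 genes it called 0 in each comparison of lines, 1 to 4 to day 2, 4 to 7 from day 2 to day 4, and 3 to 7 from day 0 to day 4. With days 2 and 4 alone it called 7 of the 10 genes and 3310 genes in all. Fewer samples and residual degrees of freedom enter each of these fits. Depth limits Ring1 and Ezh1 most, and the missing replicates limit every comparison.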
